A study of Mus musculus with 57 samples.

Results

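Solute carriers are the membrane proteins that move small molecules and ions across the plasma membrane and the membranes of mitochondria, synaptic vesicles, lysosomes and the Golgi. They do so down a gradient or coupled to the movement of another ion, without using ATP directly. In the cortex they load transmitters into vesicles, clear them from the synapse, supply glucose and amino acids, set the chloride and proton content of neurons and exchange metabolites with mitochondria. Of 10526 genes tested, 194 were solute carriers, here all genes whose symbol starts with Slc and a digit and whose value averaged at least 10 over all libraries, without the glutamate transporters Slc1a2 and Slc1a3 and the glucose transporter Slc2a1. The pattern matched 373 rows of the table, of which 176 averaged below 10 and 26 had no read at all. Just inside the limit were Slc16a10 at 10.3 and Slc2a12 at 10.7, and just outside it were Slc10a7 at 9.73 and Slc24a5 at 9.71. Among the members, Slc9a3r1, Slc9a3r2, Slc4a1ap and Slc7a6os encode proteins that are named after a solute carrier without being one, and Slc2a4rg-ps is a pseudogene.

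RNA came from the visual cortex of wild-type mice, and 57 MARS-Seq libraries were read, a method that counts tags near the 3′ end of transcripts. All mice lived under cycles of 12 h light and 12 h dark, and times are Zeitgeber times (ZT), counted in hours from the usual onset of light. In the light arm the lights came on as usual on the day of collection, and 7 hours were sampled (ZT1, ZT3 and ZT7.5, then ZT11.5 and ZT13, then ZT15 and ZT18), with 3 libraries at the last of them and 4 at each other. In the dark arm the lights stayed off on that day, and ZT0 was sampled besides these 7, with 3 libraries each at ZT1 and ZT13 and 4 at each other hour. No age, sex or strain is given for the mice in the labels used. The samples are labelled as biological replicates without naming the animals, so p-values measure only the spread between these samples, which may be technical in part.

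Libraries held 1.64 to 4.31 M reads, with a median of 2.76 M in the light arm and 2.75 M in the dark arm. Depth was not even over the dark hours. It ran from 3.12 to 3.79 M at dark ZT0 and from 2.97 to 3.83 M at dark ZT3. At dark ZT13 it ran from 1.64 to 2.63 M and at dark ZT18 from 1.87 to 2.61 M. Dark ZT1 and ZT15 ran across both ranges. Light ZT3 (2.24 to 3.42 M) and light ZT18 (2.38 to 3.20 M) overlapped. The part of depth in changes over the dark hours or in fitted 24 h rhythms was not tested. The cortical label fitted its markers: the neuronal kinase gene Camk2a averaged 4892 normalised counts, the projection neuron factor Neurod6 551, and the interneuron gene Gad1 838. Genes of neighbouring tissue were present in uneven amounts. The summed level of 5 choroid plexus genes ran from 64.5 to 20910 between libraries. That of 5 thalamic genes ran from 464 to 914, but most of it was Adarb1, which averaged 469 and ranged from 359 to 566. The other thalamic genes that averaged at least 10 varied more. Prkcd ran from 27.5 to 166, Tnnt1 from 11.4 to 140 and Tcf7l2 from 4.09 to 93.1. The haemoglobin genes Hba-a1 and Hbb-bs and the striatal receptor Drd2 were listed at 0 in every library.

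The solute carriers fell into 22 transport roles by their gene family and together took 1.62% to 1.79% of all values in a library, with a median of 1.72%. Values are normalised counts of tags near the 3′ end, so levels of different genes describe tag numbers and give no order of transcript amounts. The 31 mitochondrial carriers held 36.7% of the members' summed value. The largest mean there was 4571 for Slc25a4, the heart and muscle form of the ADP/ATP exchanger, followed by 2872 for Slc25a3, the mitochondrial phosphate carrier. The 5 genes of vesicular loading held 10.0%, with Slc17a7, the vesicular glutamate transporter of most cortical neurons, at 3840, and Slc32a1, the vesicular GABA transporter, at 641. The 9 genes of neurotransmitter and related uptake held 7.94%, with Slc6a17, a transporter of synaptic vesicles, at 1157.

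In the other roles 1 gene often stood far above the rest. Slc22a17, a receptor for the iron-binding protein lipocalin-2, averaged 3449 while the other 3 genes of its group lay between 11.6 and 144. Slc12a5, the chloride extruder of mature neurons, averaged 1439, and Slc12a2, which brings chloride in, averaged 12.5. Further leading genes were the heme transporter Slc48a1 at 718, the sodium-calcium exchanger Slc8a2 at 604 and the nucleotide sugar family member Slc35c2 at 336. The neuronal glutamate transporter Slc1a1 averaged 231, the fatty acid transporter Slc27a1 74.7 and the monoamine transporter Slc29a4 63.9. The acetyl-CoA transporter Slc33a1 at 42.7 and the urea transporter Slc14a1 at 21.3 were the single members of their roles. In all, 78 members averaged at least 100 and 29 less than 20.

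**Figure D1:**
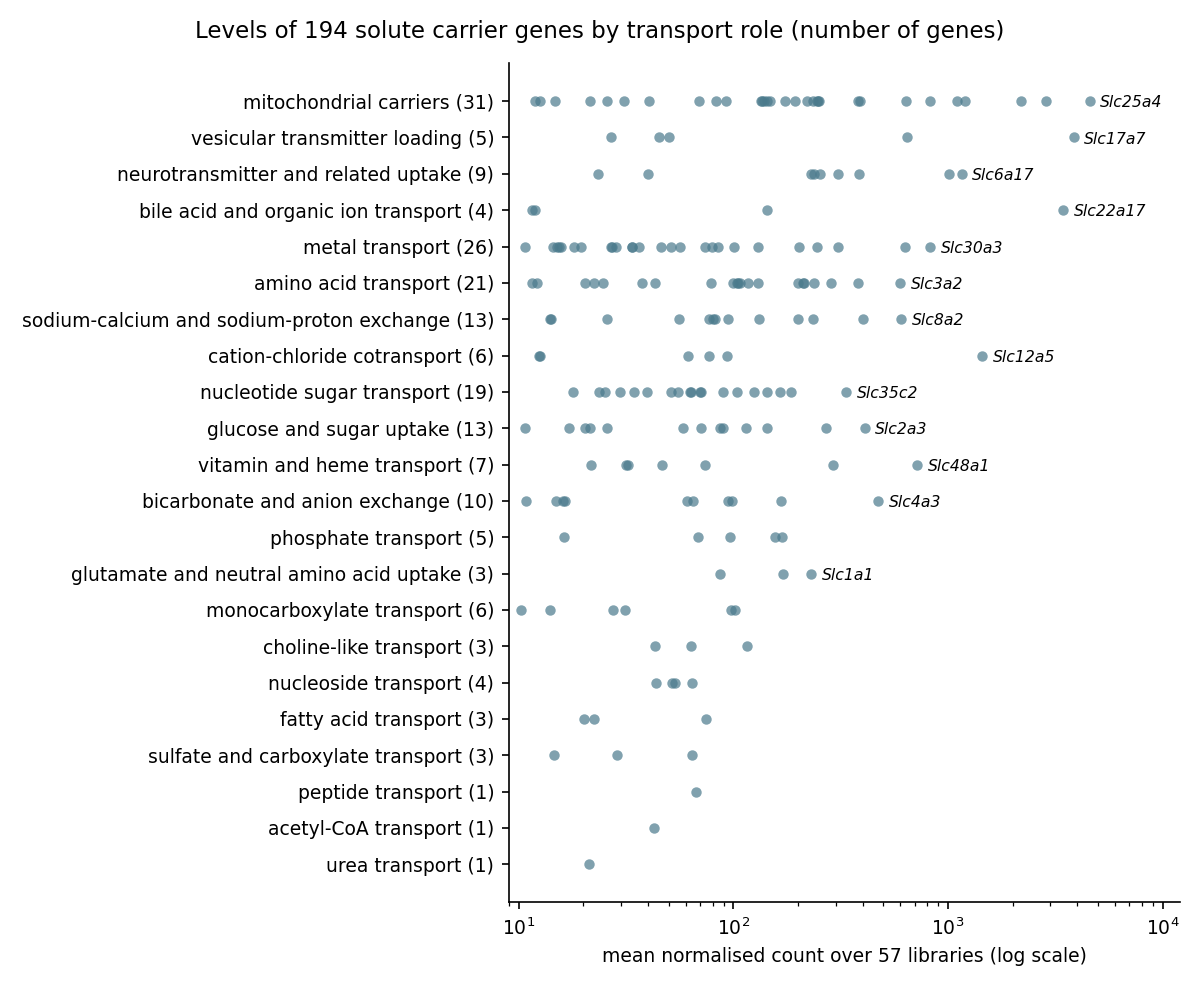
Mean normalised count of each solute carrier over 57 libraries (log axis) in rows by transport role, with the number of genes in brackets; each point is 1 gene and the leading gene is named in the rows that reach higher levels. Mitochondrial carriers reach 4571 with Slc25a4, vesicular loading 3840 with Slc17a7 and organic ion transport 3449 with Slc22a17.

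The first question was which transporters differed between a day with light and a day without it at the same hour. At ZT1, after the first hour of light, 1 of 194 solute carriers was higher in light and none was lower at an adjusted p below 0.05, against 0.257% of all genes called. That gene was Slc25a25, which encodes a calcium-regulated carrier of the inner mitochondrial membrane that exchanges ATP-magnesium for phosphate and so sets the adenine nucleotide content of the organelle. In bulk tissue, fewer cells of a type and less RNA per cell cannot be told apart, here and in all results that follow.

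Slc25a25 lies at chr2:32414487-32451445 on the minus strand (GRCm38). RefSeq lists 3 promoter windows for it, each running from 250 bases before to 50 after an annotated start. The window shown, because it alone of the 3 holds a cAMP response element, is chr2:32424017-32424316 (minus strand) and lies inside the annotated gene at the start of a shorter transcript. The capitals mark the element TGACGTCA, a palindrome that reads the same on both strands, which begins 150 bases before the start.
Slc25a25: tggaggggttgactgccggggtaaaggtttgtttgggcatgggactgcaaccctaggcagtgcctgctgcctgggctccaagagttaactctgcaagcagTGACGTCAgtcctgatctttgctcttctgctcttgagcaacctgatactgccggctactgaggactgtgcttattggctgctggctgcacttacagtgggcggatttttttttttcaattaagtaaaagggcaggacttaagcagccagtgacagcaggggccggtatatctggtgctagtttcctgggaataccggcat
The 8 letters occurred in 2 of 153 members with a listed promoter, Slc25a25 and Slc38a6, and in 3.61% of 8078 tested genes. Here a gene counted if any of its windows matched, which gave 2.03% over all 27025 genes with a listed promoter. Counted by single window, the share was 1.79% of all 32851 promoters of this length. A match of letters is a description, and tags from the 3′ end do not tell which start was used.

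At ZT1, Slc25a25 stood at 247, 292, 284 and 307 normalised counts in the light libraries, against 209, 188 and 195 in the dark libraries. Every light library was above every dark one. The log2 difference was 0.51 (SE 0.095, 95% interval 0.33 to 0.70, adjusted p 0.001 by limma). Among the 15 group means, light ZT1 was the highest at 283 ± 25.2 (SD, n = 4) and dark ZT1 the lowest at 197 ± 10.6 (SD, n = 3), with dark ZT0 at 242 ± 13.2 (SD, n = 4) between them. At ZT11.5 the 4 light libraries at 230 to 267 again lay above the 4 dark ones at 179 to 220, with a log2 difference of 0.29 and an adjusted p of 0.20. At ZT3, ZT7.5, ZT13, ZT15 and ZT18 the arms overlapped. The ZT1 difference was 0.44 in replicates 1 and 2 and 0.60 in replicates 3 and 4. In the latter set replicate 3 alone stood for the dark arm. The call held without any single library of the pair of groups (largest adjusted p 0.0307). With the spread taken from these 7 libraries alone the call was lost (adjusted p 0.157). Without strand information, reads of Naif1, whose exons overlap Slc25a25 on the other strand, could not be told apart from its own.

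Slc3a2 was next at ZT1 and did not pass. It encodes the heavy chain of CD98, which carries amino acid transporters such as Slc7a5 and Slc7a8 to the plasma membrane. It had 592, 564, 606 and 681 normalised counts in light libraries, against 471, 372 and 549 in dark libraries. The groups did not overlap, and the log2 difference was 0.41 (SE 0.10, adjusted p 0.077). It passed when the libraries under 2 M reads, none of them from ZT1, were left out of the fit (adjusted p 0.0303) and with DESeq2 (adjusted p 0.0196). Its partner Slc7a5, which imports large neutral amino acids, had 101, 140, 45.7 and 113 in light libraries, against 52.6, 62.1 and 79.6 in dark libraries. These groups overlapped, and the log2 difference of 0.53 had an interval from 0.01 to 1.04 and an adjusted p of 1.0. Slc7a8, another light chain, differed by 0.07 (interval -0.15 to 0.29). Over the dark hours Slc3a2 passed (adjusted p 0.023) with its lowest mean, 464, at ZT1, but not without the dark ZT1 library at 372 (adjusted p 0.266). Slc7a8 passed over the dark hours too (adjusted p 0.026), with means of 251 ± 46.9 at ZT13 (SD, n = 3) and 180 ± 16.9 at ZT3 (SD, n = 4), but not without the dark ZT13 library at 291 (adjusted p 0.0782).

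**Figure D2:**
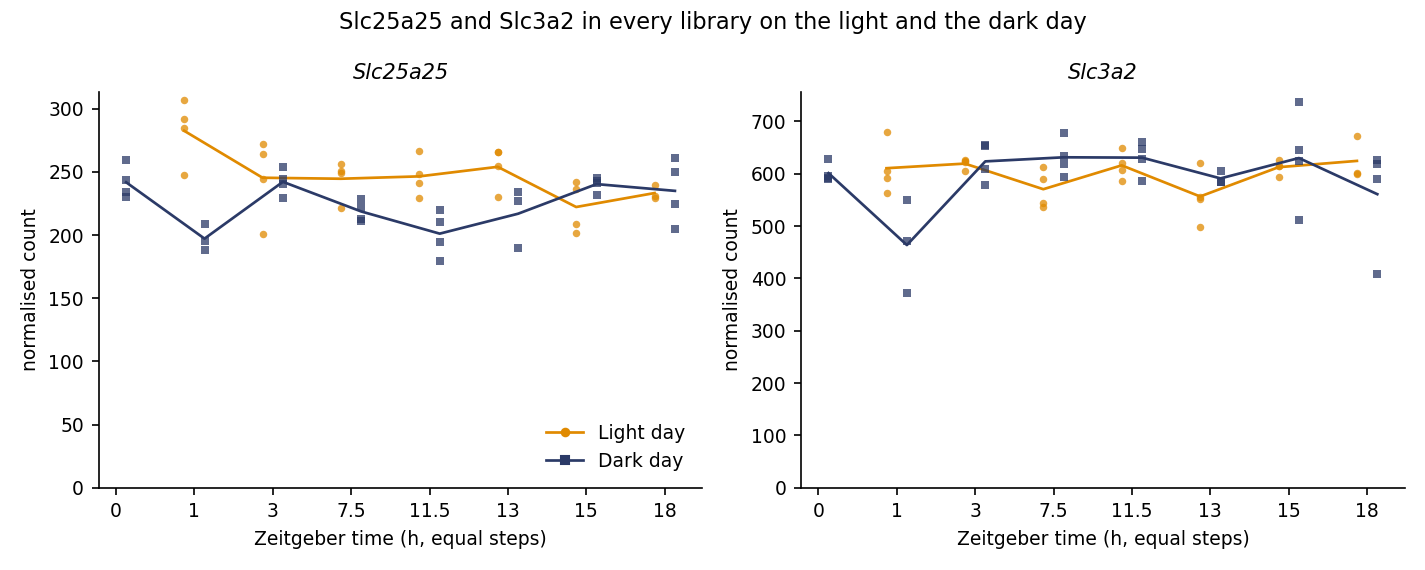
Normalised counts of Slc25a25 (left) and Slc3a2 (right) at each Zeitgeber time (hours, equal steps), with light libraries as circles left of dark libraries as squares and lines through the group means; ZT0 is labelled dark. At ZT1 the light libraries of Slc25a25 lie at 247 to 307 and the dark libraries at 188 to 209, and the dark mean of Slc3a2 dips to 464 at ZT1.

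At the other 6 hours no solute carrier was called. The share of all genes called was 0.124% at ZT3, 0% at ZT7.5, 0.152% at ZT11.5 (0.133% higher and 0.019% lower in light), 0.038% at ZT13, 0% at ZT15 and 0% at ZT18. At an unadjusted p below 0.05 limma counted 7 members at ZT1, 16 at ZT3, 9 at ZT7.5, 8 at ZT11.5, 20 at ZT13, 12 at ZT15 and 28 at ZT18. These were 3.61%, 8.25%, 4.64%, 4.12%, 10.3%, 6.19% and 14.4% of the members, and over all genes the shares were 4.64%, 6.94%, 5.82%, 8.02%, 8.27%, 4.41% and 9.16% in the same order of hours. By edgeR the called members were 1 at ZT1, of 34 genes called in all, and 0 at each of the other hours, where at most 17 genes were called. DESeq2 called 2 at ZT1 of 40 genes in all, 1 at ZT3 of 23, which was the bicarbonate exchanger Slc4a3, and 0 at the other 5 hours, where at most 41 were called. The median log2 difference of the members stayed between -0.03 at ZT11.5 and 0.04 at ZT18.

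The precision of these comparisons differed by level. For the 78 members that averaged at least 100, the median SE of a light minus dark difference was 0.12 at ZT1 and 0.11 at ZT3, and the 95% interval lay within a 1.5-fold change either way for 71 of 78 at ZT1, 75 at ZT3, ZT7.5 and ZT13, 77 at ZT11.5 and ZT15 and 74 at ZT18. Slc17a7 differed by -0.16 at ZT1 (interval -0.44 to 0.11) and Slc32a1 by -0.05 (interval -0.27 to 0.17). Slc12a5 differed by 0.03 (interval -0.18 to 0.24) and Slc25a4 by 0.05 (interval -0.12 to 0.22). Larger changes of low genes were within the error, as for Slc12a2, whose interval at ZT1 ran from -1.18 to 0.45.

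Whether the light minus dark difference itself varied over the 7 shared hours was tested with an F test, which called 1 member, against 0.181% of all genes called. This was Slc30a9, a zinc transporter of mitochondria. At ZT7.5 it had 718, 692, 622 and 634 normalised counts in light libraries, against 545, 605, 480 and 573 in dark libraries. At ZT18 it had 495, 632 and 603 in light libraries, against 700, 665, 669 and 876 in dark libraries. Light was above dark without overlap at the earlier of these hours and below it without overlap at the later one.

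The log2 differences of Slc30a9 were -0.18, 0.11 and 0.28 at ZT1, ZT3 and ZT7.5, then -0.17 and -0.09 at ZT11.5 and ZT13, and 0.21 and -0.33 at ZT15 and ZT18 (adjusted p 0.034 by limma). The signs were equal in replicates 1 and 2 and in replicates 3 and 4. These sets are the libraries that gave the call, so equal signs are no independent support. In the second set replicate 3 alone stood for the dark arm at ZT1 and ZT13 and for the light arm at ZT18. No single hour passed on its own (adjusted p from 0.30 to 1.0). The call was lost without the libraries under 2 M reads, where replicate 1 alone stood for dark ZT13. It was lost too with a term for the level of Prkcd and Tnnt1, which mark thalamus (adjusted p 0.112). The same held when all genes with a read were tested (0.0596) and in 17 of 53 fits that left out 1 library. The dark libraries alone changed over the hours (adjusted p 0.0088), with the lowest mean, 551 ± 53.3, at ZT7.5 and the highest at ZT18 (n = 4 each). This call too was lost without the libraries under 2 M reads, and the light libraries gave an adjusted p of 0.38.

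**Figure D3:**
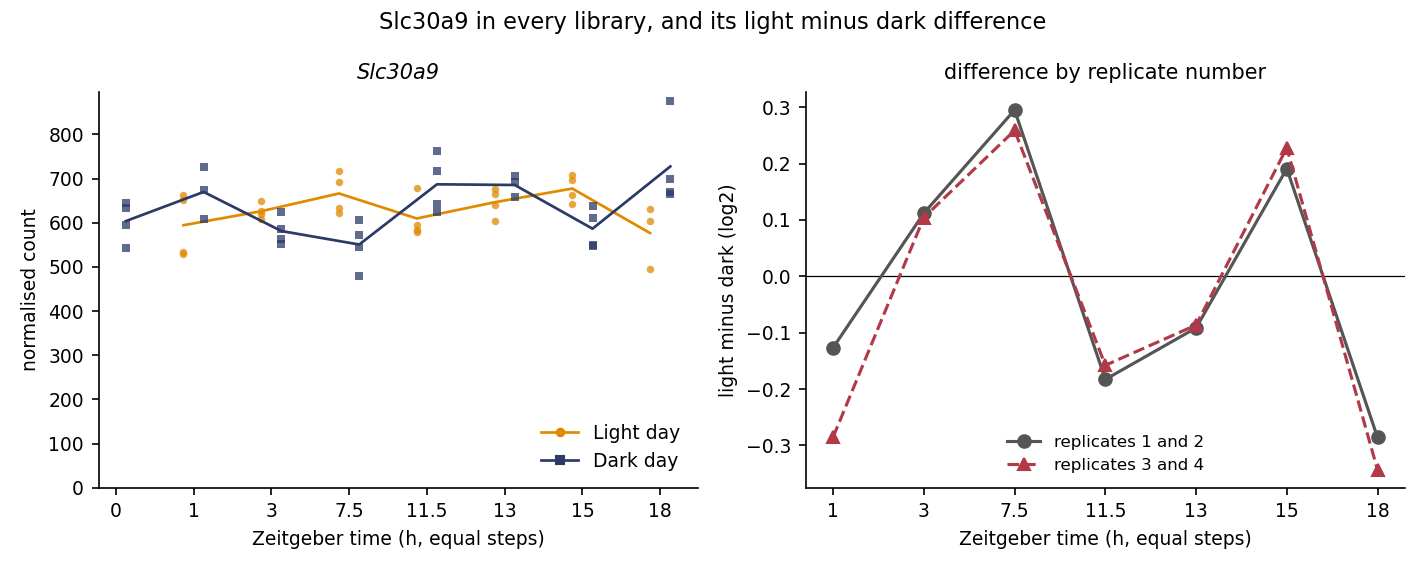
Left, normalised counts of Slc30a9 by Zeitgeber time (hours, equal steps), light libraries as circles left of dark libraries as squares, lines through group means. Right, light minus dark difference on the log2 scale, for replicates 1 and 2 (circles) and 3 and 4 (triangles): both sets are above 0 at ZT3, ZT7.5 and ZT15 and below 0 at ZT1, ZT11.5, ZT13 and ZT18. For the triangles, replicate 3 alone stands for the dark arm at ZT1 and ZT13 and for the light arm at ZT18.

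The second question was how transporters changed over the hours of the day. A 24 h cosine fitted to both arms together called 41 of 194 solute carriers (21.1%), against 16.2% of all genes tested. The fitted change from trough to peak ran from 1.10-fold to 2.80-fold, with a median of 1.26-fold, and the median over all called genes was also 1.26-fold. In 4 members it reached 1.5-fold. Since sampling spanned 18 h, peaks between ZT18 and ZT24 rest on the assumed period.

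Of the 41 peaks, 6 fell between ZT0 and ZT6, 16 between ZT6 and ZT12, 8 between ZT12 and ZT18 and 11 between ZT18 and ZT24. These were 14.6%, 39.0%, 19.5% and 26.8% of the called members. Among all tested genes 2.47%, 4.93%, 3.28% and 5.48% were called with a peak in these spans, which made 15.3%, 30.5%, 20.3% and 33.9% of the called genes. An F test over the 8 dark hours called 17 members, against 6.52% of all genes, and one over the 7 light hours called 8, against 3.81%. Slc20a1 and Slc25a38 passed in both. Of the 41 rhythmic members 10 also passed over the dark hours and 6 over the light hours.

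**Figure D4:**
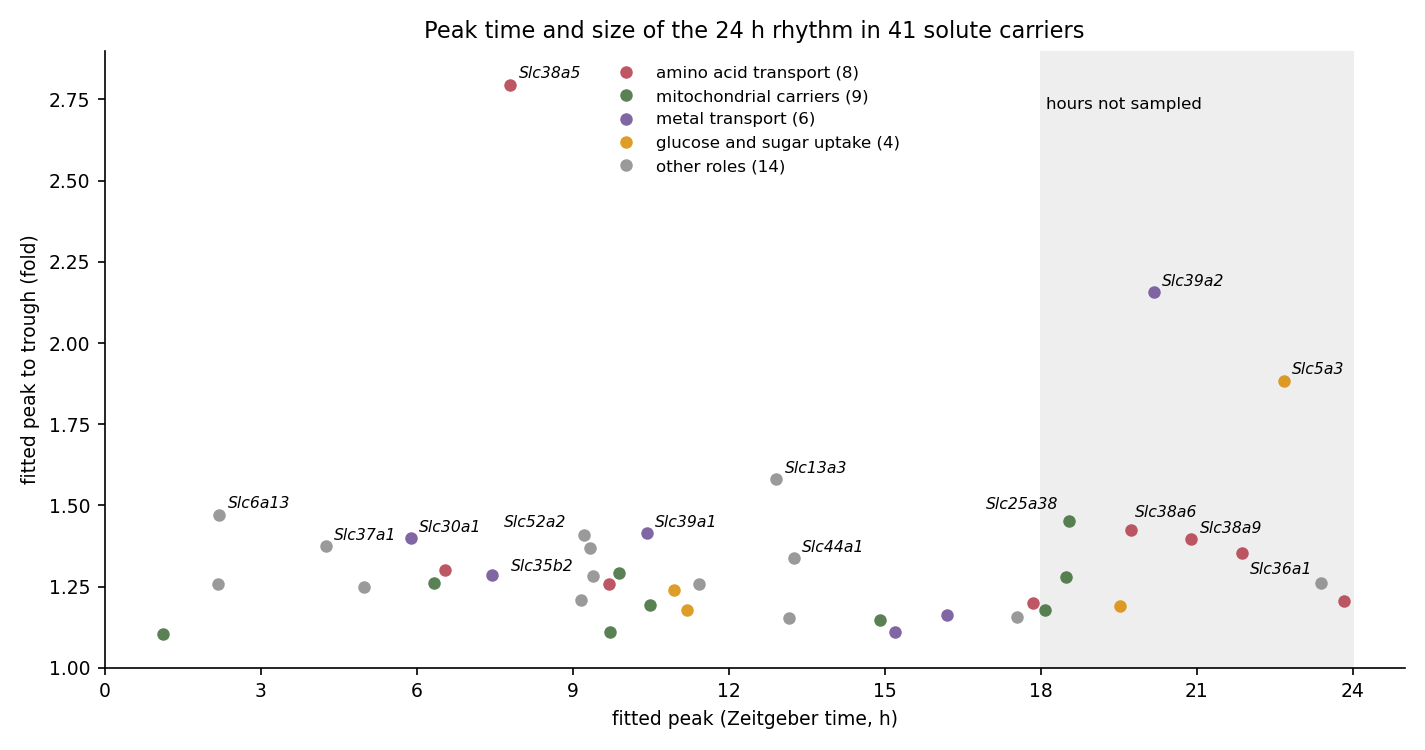
Fitted peak (Zeitgeber time, hours) against fitted change from trough to peak (fold) for the 41 solute carriers with a 24 h rhythm, coloured by transport role; grey shading marks hours with no samples. Most points lie below 1.5-fold, and Slc38a5 stands highest at 2.80-fold.

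In the amino acid group, which includes Slc7a6os, 8 of 21 members were rhythmic, against 16.2% of all genes, and 6 of the 8 belong to the Slc38 family of sodium-coupled neutral amino acid carriers and their lysosomal relative. Slc36a1, which exports amino acids from lysosomes with protons, ranged from 80.0 to 158 in light libraries (median 116) and from 71.7 to 155 in dark libraries (median 115). At ZT1 it had 127, 144, 148 and 158 in light libraries and 120, 138 and 147 in dark libraries. At ZT11.5 it had 80.0, 97.3, 108 and 97.9 in light libraries and 104, 102, 71.7 and 110 in dark libraries. All 7 libraries of ZT1 thus lay above all 8 of ZT11.5, and the fitted peak was at ZT21.9 with a 1.35-fold change (adjusted p 0.00039).

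Slc38a1 and Slc38a2, which take up glutamine and other neutral amino acids, peaked at ZT23.8 (1.21-fold, adjusted p 0.0012) and ZT17.8 (1.20-fold, 0.019). Slc38a3, the glutamine exporter of astrocytes, peaked at ZT6.5 (1.30-fold, 0.0095). Slc38a6 and the lysosomal arginine sensor Slc38a9 peaked at ZT19.7 (1.43-fold, 0.025) and ZT20.9 (1.40-fold, 0.038). Slc38a3 and Slc38a5 thus peaked between ZT6 and ZT12 and the other 4 between ZT17.8 and ZT23.8.

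Slc38a5, a glutamine carrier, had the largest fitted change, 2.80-fold with a peak at ZT7.8 (adjusted p 0.0005), at the low mean of 11.6. It lay between 0 and 27.3 normalised counts in light libraries and between 3.98 and 22.7 in dark libraries. At ZT11.5 it had 11.9, 17.9, 18.2 and 19.4 in light libraries and 12.5, 16.8, 22.7 and 14.8 in dark libraries, and at ZT1 it had 8.27, 5.69, 6.66 and 9.44 in light libraries and 11.49, 7.26 and 3.98 in dark libraries. The hours did not overlap in either arm. The fitted log2 change was 1.48, and 1.16 without the light ZT18 library at 0.

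Slc7a10, the carrier of D-serine and small neutral amino acids, peaked at ZT9.7 (1.26-fold, adjusted p 0.020) and also passed over the light hours (adjusted p 0.0063). It had 143, 126, 124 and 128 in light libraries at ZT7.5, against 81.9, 60.4, 90.4 and 88.1 at light ZT1, with no overlap. In dark libraries the same hours gave 95.1, 120, 113 and 97.1 at ZT7.5 and 76.8, 74.2 and 90.2 at ZT1, again without overlap. Its exons overlap Lrp3 on the other strand.

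Of 31 mitochondrial carriers 9 were rhythmic, against 16.2% of all genes. The smallest p among them was that of Slc25a38, the glycine carrier that feeds heme synthesis, which ranged from 94.7 to 192 in light libraries (median 136) and from 106 to 197 in dark libraries (median 135). At ZT15 it had 141, 164, 188 and 166 in light libraries, against 98.6, 97.3, 139 and 127 at light ZT3, a log2 difference of 0.52 (SE 0.12, adjusted p 0.027). In the dark arm ZT15 had 149, 142, 189 and 149, against 121, 118, 121 and 141 at ZT3, a difference of 0.32 (SE 0.12, adjusted p 0.24). ZT15 lay above ZT3 without overlap in both arms. The light-arm call was lost in 5 of 8 fits without 1 library (adjusted p up to 0.219). The rhythm peaked at ZT18.5 in each arm and changed 1.45-fold (adjusted p 3.3e-06).

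Other mitochondrial carriers changed less. The citrate carrier Slc25a1 peaked at ZT9.9 (1.29-fold, adjusted p 0.0041), the oxoglutarate carrier Slc25a11 at ZT9.7 (1.11-fold, 0.029) and the glutamate carrier Slc25a18 at ZT6.3 (1.26-fold, 0.0079). The coenzyme A carrier Slc25a42 peaked at ZT18.5 (1.28-fold, 0.0037). Slc25a17, Slc25a26 and Slc25a3 changed 1.19-fold, 1.15-fold and 1.10-fold. Slc25a44, a carrier of branched-chain amino acids, passed over the dark hours (adjusted p 0.027) without a fitted 24 h rhythm (adjusted p 0.89), with its highest dark mean, 290 ± 25.0, at ZT15 and its lowest, 216 ± 29.7, at ZT18 (SD, n = 4 each). This call was lost in 5 of 30 fits without 1 library (adjusted p up to 0.0602).

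Among genes of synaptic transmission, Slc17a7 changed 1.26-fold with a peak at ZT11.4 (adjusted p 0.0023). It lay between 2788 and 5390 normalised counts in light libraries (median 3848) and between 2609 and 4996 in dark libraries (median 3841). The group means were lowest at ZT1 in the light arm, 3152 ± 352, and at ZT3 in the dark arm, 3111 ± 336, and highest at ZT13 in the light arm, 4545 ± 730, and at ZT18 in the dark arm, 4190 ± 702 (SD, n = 4 each). Single libraries overlapped between these hours in the dark arm. No rhythm was called for Slc32a1 (fitted fold 1.06, adjusted p 0.66), Slc6a17 (fitted fold 1.09, adjusted p 0.44) or Slc12a5 (fitted fold 1.08, adjusted p 0.38).

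Slc17a6, the vesicular glutamate transporter of thalamic neurons, averaged 27.0 with libraries from 12.2 to 58.1, and no rhythm was called (adjusted p 0.47). Its deviation from the group mean went with that of the 4 thalamic genes above the filter over the 57 libraries (Pearson r 0.50, permutation p 0.0033, adjusted p 0.020, and Spearman rho 0.49, permutation p 0.0010, adjusted p 0.012, over 12 gene and marker list pairs). Without the 2 libraries farthest out r was 0.43, and it was 0.52 in replicates 1 and 2 and 0.47 in replicates 3 and 4. The part of thalamic tissue in its level was not tested further.

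In the Slc6 family, Slc6a13, a GABA transporter of brain surfaces, peaked at ZT2.2 (1.47-fold, adjusted p 0.0067) and passed over the light hours (adjusted p 0.038). The light-hours call was lost in 11 of 27 fits without 1 library (adjusted p up to 0.0937). Its light libraries stood at 49.9, 45.6, 50.7 and 46.7 at ZT7.5 and at 15.0, 30.4, 37.3 and 21.1 at ZT11.5, with no overlap, while the dark libraries stood at 51.4, 39.5, 51.4 and 41.1 at ZT7.5 and at 47.1, 38.6, 41.8 and 29.6 at ZT11.5, which overlapped. The creatine transporter Slc6a8 peaked at ZT17.5 (1.16-fold, 0.013, and 0.0624 without the libraries under 2 M reads) and the glycine transporter Slc6a9 at ZT9.4 (1.28-fold, 0.033). The glial GABA transporter Slc6a11 passed over the light hours (adjusted p 0.034) with 613, 418, 322 and 342 in light libraries at ZT7.5, against 278, 238, 304 and 328 in dark libraries. Without the first of these light libraries its adjusted p was 0.181.

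Among metal transporters, 6 of 26 were rhythmic, against 16.2% of all genes. Slc30a3, which fills the vesicles of glutamatergic terminals with zinc, peaked at ZT16.2 (1.16-fold, adjusted p 0.0077) with light means of 716 ± 55.6 (SD, n = 4) at ZT1 and 943 ± 27.3 (SD, n = 3) at ZT18. Its light course passed (adjusted p 0.045) but no longer did so in 18 of the 27 fits without 1 light library. Slc39a2, a zinc importer, had a fitted change of 2.16-fold with a peak at ZT20.2 (adjusted p 0.0015) at the low mean of 15.7. It shares exon sequence with Mettl17 on the same strand. The zinc exporter of the plasma membrane Slc30a1 peaked at ZT5.9 (1.40-fold, 0.0088), the zinc importers Slc39a1 and Slc39a6 at ZT10.4 (1.41-fold, 0.0027) and ZT7.45 (1.29-fold, 0.029), and the magnesium exporter Slc41a1 at ZT15.2 (1.11-fold, 0.046).

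Both sodium-coupled phosphate importers were rhythmic, at different hours. Slc20a1 had 239, 171, 204 and 207 normalised counts in light libraries and 222, 211 and 182 in dark libraries at ZT1. At ZT7.5 it had 111, 158, 124 and 137 in light libraries and 146, 153, 165 and 164 in dark libraries, below every ZT1 library. Its fitted peak was at ZT23.4 (1.26-fold, adjusted p 0.0037), and it passed over the light hours (adjusted p 0.0086) and the dark hours (0.033). The dark-hours call was lost in 7 of 30 fits without 1 library (adjusted p up to 0.0875).

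Slc20a2 had 120, 133, 148 and 146 at ZT15 in light libraries, against 192, 166, 191 and 215 at light ZT3, without overlap and with a log2 difference of -0.48 (SE 0.12, adjusted p 0.048). In dark libraries ZT15 gave 143, 161, 120 and 130, against 133, 164, 155 and 163 at ZT3, which overlapped, with a difference of -0.16 (SE 0.12, adjusted p 0.63). The light-arm call was lost in 7 of 8 fits without 1 library (adjusted p up to 0.266). The fitted peak of Slc20a2 was at ZT5.0 (1.25-fold, adjusted p 0.00065). Slc37a1, which exchanges sugar phosphates for phosphate, peaked at ZT4.3 (1.38-fold, 0.036).

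The rhythm with the smallest p of all members was that of Slc13a3, the sodium-coupled importer of dicarboxylates such as succinate and N-acetylaspartate. At ZT1 it had 43.0, 47.8, 48.5 and 51.9 normalised counts in light libraries and 43.6, 53.2 and 31.8 in dark libraries. At ZT13 it had 94.0, 74.0, 76.1 and 64.8 in light libraries and 78.1, 87.9 and 72.3 in dark libraries. All 7 libraries of ZT13 were above all 7 of ZT1, and the fit gave a 1.58-fold change with a peak at ZT12.9 (adjusted p 2.1e-06). The arms peaked at ZT12.3 in light and ZT13.4 in dark.

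Slc44a1, a choline transporter, had 102, 75.2, 95.1 and 116 in light libraries and 101, 79.0 and 106 in dark libraries at ZT1, and 141, 137, 124 and 108 in light libraries and 132, 134, 157 and 155 in dark libraries at ZT11.5. Only in the dark arm did these hours not overlap. The change was 1.34-fold with a peak at ZT13.3 (adjusted p 7.5e-06). All 5 myelin genes listed as oligodendrocyte markers were rhythmic too, and their summed level ran from 15265 to 17898 at ZT1 and 21585 to 24081 at ZT11.5 in light libraries, and from 13577 to 15809 at ZT1 and 18625 to 21515 at ZT11.5 in dark libraries. Within groups, the deviation of Slc44a1 went with that of these genes (Pearson r 0.56, permutation p 0.0016, adjusted p 0.019, and Spearman rho 0.47, permutation p 0.0030, adjusted p 0.018). Without the 2 farthest libraries r was 0.46, and it was 0.71 in replicates 1 and 2 and 0.41 in replicates 3 and 4. For Slc13a3 the same correlation was 0.34 (permutation p 0.058, adjusted p 0.17). The part of these cells in either rhythm was not tested.

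Slc35b2, which brings the sulfate donor PAPS into the Golgi, peaked at ZT9.3 (1.37-fold, adjusted p 0.00019). Its light libraries stood at 172, 179, 204 and 196 at ZT7.5 and at 150, 170, 124 and 146 at ZT1, while its dark libraries stood at 205, 207, 147 and 203 at ZT7.5 and at 141, 111 and 162 at ZT1. The hours did not overlap in light and overlapped in dark by 1 library. The other 18 members of the nucleotide sugar group were not called.

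Of 13 members grouped under sugar uptake by family, which include the pseudogene Slc2a4rg-ps, the iodide carrier Slc5a5 and the vitamin carrier Slc5a6, 4 were rhythmic, against 16.2% of all genes. Slc2a3, the main glucose importer of neurons, peaked at ZT19.5 (1.19-fold, adjusted p 0.019), and the intracellular sugar transporters Slc2a6 and Slc2a8 at ZT11.0 (1.24-fold, 0.014) and ZT11.2 (1.18-fold, 0.046). Slc5a3, the sodium-coupled importer of the osmolyte myo-inositol, changed 1.88-fold with a peak at ZT22.7 (adjusted p 0.00045). It had 24.8, 35.3, 17.1 and 22.8 in light libraries and 32.7, 33.1 and 37.1 in dark libraries at ZT1, and 23.1, 15.5, 16.2 and 6.61 in light libraries and 16.2, 9.93 and 22.5 in dark libraries at ZT13. The hours were apart in the dark arm and overlapped in the light arm. It shares exon sequence with Mrps6 on the same strand.

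Slc4a3, the chloride-bicarbonate exchanger of neurons, had the smallest p over the dark hours (adjusted p 0.0011) and a rhythm of 1.15-fold with a peak at ZT13.2 (0.0027). In the dark arm it had 485, 482, 480 and 460 normalised counts at ZT15, against 372, 396, 356 and 399 at ZT3, a log2 difference of 0.32 (SE 0.08, adjusted p 0.040). In the light arm ZT15 gave 517, 455, 519 and 472, against 438, 487, 521 and 458 at ZT3, a difference of 0.04 (SE 0.08, adjusted p 0.93). The dark groups were apart and the light groups overlapped. The dark-arm call was lost in 8 of 8 fits without 1 library (adjusted p up to 0.152). At ZT3 itself the light libraries lay above the dark ones, with a difference of 0.32 (adjusted p 0.12).

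For ZT15 minus ZT3, 2 members passed in the dark arm, 1 higher against 0.361% of all genes and 1 lower against 0.181%. In the light arm 2 passed as well, 1 higher against 0.105% and 1 lower against 0.162%. In both directions together 0.542% of all genes were called in dark and 0.266% in light. Besides Slc4a3 the dark pair held Slc26a4, an exchanger of chloride, iodide and bicarbonate, with 12.4, 11.0, 5.21 and 1.36 at ZT15, against 27.1, 13.6, 17.8 and 29.6 at ZT3. These values rest on few reads, and the log2 difference was -1.66 (SE 0.39, adjusted p 0.029). The light pair was Slc25a38 and Slc20a2. Of 8 fits without 1 library, the call was lost in 8 for Slc4a3, 7 for Slc20a2 and 5 each for Slc25a38 and Slc26a4. With only the groups compared all 4 were lost (adjusted p by limma 0.16 to 0.418). Slc15a4, the histidine and peptide exporter of lysosomes, passed over the light hours (adjusted p 0.015), with its lowest light mean, 50.2 ± 9.01, at ZT7.5 and its highest, 81.4 ± 6.72, at ZT15 (SD, n = 4 each). Without the light ZT7.5 library at 38.0 the adjusted p was 0.0779. In dark libraries its adjusted p was 0.86.

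**Figure D5:**
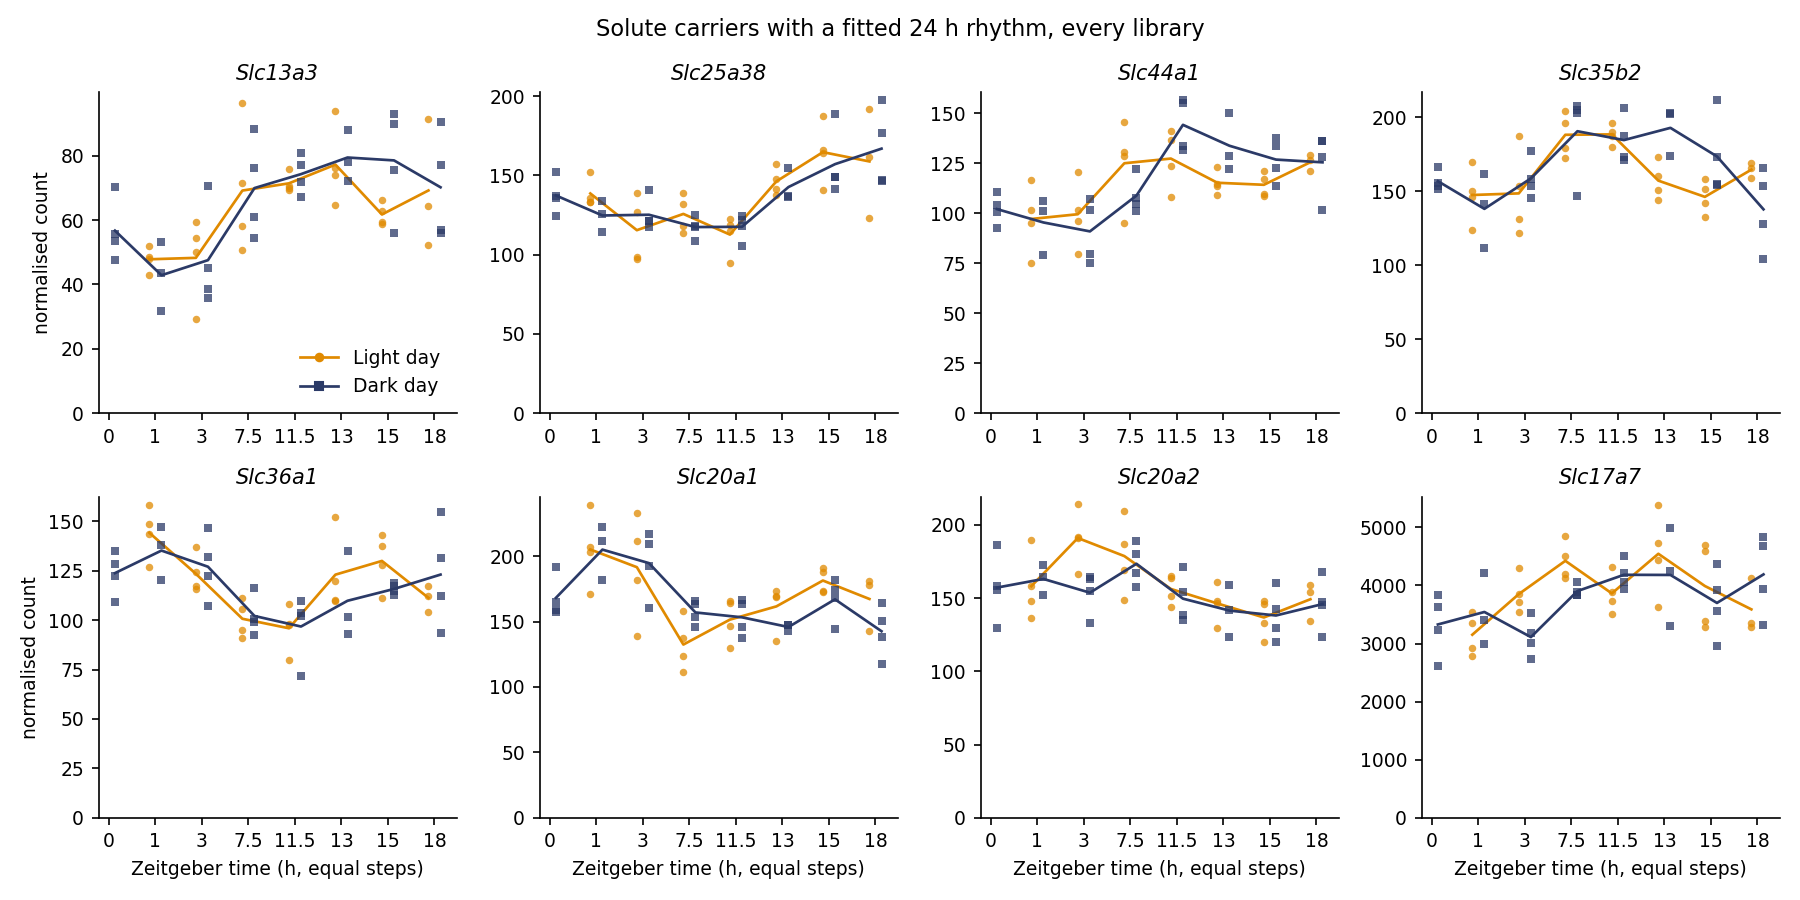
Normalised counts of 8 solute carriers with a fitted 24 h rhythm at each Zeitgeber time (hours, equal steps), light libraries as circles left of dark libraries as squares, lines through group means. The ZT13 libraries of Slc13a3 all lie above those of ZT1, Slc25a38 has its highest means at ZT15 and ZT18 in both arms, and all ZT1 libraries of Slc36a1 lie above those of ZT11.5 and all those of Slc20a1 above those of ZT7.5.

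Other roles gave few or no rhythmic members. No rhythm was called for the 13 members of the sodium-calcium and sodium-proton exchanger group, which include the scaffold genes Slc9a3r1 and Slc9a3r2, for the 6 cation-chloride cotransporters, the 6 monocarboxylate transporters, the 4 nucleoside transporters, the 3 fatty acid transporters or the 3 members of the Slc1 family. In the vitamin and heme group 2 of 7 were called, against 16.2% of all genes, the ascorbate transporter Slc23a2 with a peak at ZT9.2 (1.21-fold, adjusted p 0.0018) and the riboflavin transporter Slc52a2 at ZT9.2 (1.41-fold, 0.028). Slc18b1, a vesicular polyamine transporter, peaked at ZT2.2 (1.26-fold, 0.045). Without a rhythm, the exchanger Slc8a3 and the monocarboxylate transporter Slc16a11 passed the F test over the dark hours, which called 6.52% of all genes.

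Promoter windows were read for an E-box, CACGTG, the palindrome bound by clock factors. It was present in 5 of the 32 rhythmic members with a listed promoter (15.6%), which were Slc13a3, Slc20a1, Slc25a1, Slc36a1 and Slc38a5, and in 24 of all 153 members with one (15.7%). Among the tested genes it was present in 12.2%, and among all genes with a listed promoter in 8.09%, each gene counted if any of its windows matched. Counted by single window, the share was 7.15% of all promoters. A D-box, TTATGNAA on either strand, was in none of the 32 and in 2.56% of tested genes. The window of Slc13a3, the member with the smallest rhythm p, lies at chr2:165473148-165473447 (GRCm38, minus strand). That of Slc36a1, at chr11:55204090-55204389 (GRCm38, plus strand), holds 2 matches, as does that of Slc20a1, which is not shown. The windows of Slc13a3 and Slc36a1 are given with the E-box in capitals.
Slc13a3: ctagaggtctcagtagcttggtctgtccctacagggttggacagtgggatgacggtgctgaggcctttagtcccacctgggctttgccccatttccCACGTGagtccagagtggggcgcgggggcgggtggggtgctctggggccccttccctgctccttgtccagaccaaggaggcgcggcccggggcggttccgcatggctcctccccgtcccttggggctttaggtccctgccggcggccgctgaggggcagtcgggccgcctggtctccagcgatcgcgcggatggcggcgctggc
Slc36a1: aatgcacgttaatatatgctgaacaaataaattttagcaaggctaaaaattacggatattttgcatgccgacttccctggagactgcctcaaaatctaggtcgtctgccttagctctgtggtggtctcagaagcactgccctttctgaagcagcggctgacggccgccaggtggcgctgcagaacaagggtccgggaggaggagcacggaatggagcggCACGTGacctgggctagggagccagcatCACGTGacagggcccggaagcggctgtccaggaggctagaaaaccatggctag
The match in Slc13a3 begins 154 bases before the annotated start and the first in Slc36a1 begins 31 bases before it. These shares describe letters in a 300-base window and say nothing of binding.

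Pumps and channels that work beside solute carriers were set next to them. Of 4 plasma membrane calcium ATPases 1 was rhythmic, Atp2b4, with a peak at ZT21.1 (adjusted p 0.048). None of 5 vesicular proton ATPase subunits, 3 voltage-dependent anion channels, 2 mitochondrial pyruvate carriers, 2 monocarboxylate transporter chaperones and 4 organic anion transporters of the Slco family was rhythmic or called over the hours. No gene of these lists was called in a light minus dark comparison. Of the 3 solute carriers left out by name, Slc2a1 was rhythmic and Slc1a2 and Slc1a3 were not (adjusted p 0.55 and 0.84).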

How the data were processed

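Each deposited value is a signal, the read count of a gene in a library over that library's DESeq2 size factor, which the authors computed. Trimming used cutadapt and alignment STAR 2.5.2b against mm10, per the submitters' processing notes. Those notes as used here name no strand setting, annotation or treatment of molecular identifiers. Divided by the value of 1 read, 100% of entries came within 0.01 of whole reads. Date names in 27 rows (0.294% to 0.363% of reads) were left out.

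Tests ran in limma 3.58.1 (R 4.3.3) with its trend option, on log2(value + 1) for genes with a mean of at least 10, over all 57 libraries in 15 groups. The log2 scale understates changes of low genes. P-values were two-sided and Benjamini-Hochberg adjusted over 10526 genes, with a threshold of 0.05. Rhythms used 24 h cosine and sine terms with an offset per arm. The test was tried on simulated data. Alternatives were edgeR 4.0.16 and DESeq2 1.42.0 on recovered reads, a pseudocount of 5, other filters, terms, scalings and libraries left out.

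Members, roles, marker and gene lists were chosen with earlier results of these data known. Genes named were those passing a light comparison, the 10 smallest p per course test, the highest of each role and a fixed list. Promoter motifs (others were tried and are not shown), marker pairs and further members were picked after their values were seen. Hours set side by side differ from gene to gene, save the planned ZT15 and ZT3, and their lack of overlap is no further test. Positions come from GENCODE vM21 and promoters from RefSeq (both GRCm38); 153 members had a promoter. Exons of 58 members overlap another gene. Correlations used deviations from group means and 100000 permutations within groups. Results for some genes of these lists are not reported here.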

Additional observations from a re-analysis of the deposited data

Results flagged for a closer look

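Of 180 groups of 4 libraries over the 15 genes looked at, 11 held a library far from the other 3, where chance gives about 1 in 20 groups. Slc3a2 stood at 628.9 normalised counts in dark ZT0 replicate 4 (others at most 595) and at 407.7 in dark ZT18 replicate 4 (others at least 591). Slc30a9 stood at 876.3 in dark ZT18 replicate 4 (others at most 700.04) and at 679.9 in light ZT11.5 replicate 3 (others at most 595). Slc25a38 stood at 140.7 in dark ZT3 replicate 4, at 189 in dark ZT15 replicate 3 and at 152.3 in light ZT1 replicate 1, each the highest of its group. Slc35b2 stood at 147 in dark ZT7.5 replicate 3 (others at least 203). Slc7a10 stood highest at 116.8 in dark ZT0 replicate 2 and lowest at 88.43 in dark ZT11.5 replicate 3. Slc20a1 stood at 134.8 in light ZT13 replicate 4 (others at least 169). The light minus dark difference of Slc30a9 varied with the hour (adjusted p 0.034 by limma).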

How the results depend on the processing

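Counts of called members are given with the reported count in brackets. Without the filter on low values they were 11 over the dark hours (17), 5 over the light hours (8), 0 for the light minus dark difference varying with the hour (1), and for ZT15 minus ZT3 0 in dark (2) and 1 in light (2). With only the groups compared they were 0 at ZT1 (1), 3 over the light hours, and 0 in both arms for ZT15 minus ZT3. A term for replicates 3 and 4 gave 2 for the varying difference, adding Slc25a25 (adjusted p 0.024). A term for Prkcd and Tnnt1 gave 0 there and 1 for ZT15 minus ZT3 in light. Without libraries under 2 M reads there were 2 at ZT1, 7 over the dark hours, 0 for the varying difference, and for ZT15 minus ZT3 0 in dark and 1 in light. DESeq2 called 2 at ZT1 and 1 at ZT3 (0). Leaving out 1 library gave 35 to 45 rhythmic members (41), 11 to 22 over the dark hours, 5 to 10 over the light hours, 1 to 2 at ZT1, 0 to 2 for the varying difference, and for ZT15 minus ZT3 0 to 3 in dark and 0 to 1 in light. The causes of these moves were not tested. The libraries under 2 M reads were dark ZT13 replicates 2 and 3, dark ZT15 replicate 4 and dark ZT18 replicates 1 and 4. Light ZT7.5 replicate 2 and light ZT15 replicate 3 were the others. Without them replicate 1 alone stood for dark ZT13, so depth and the loss of libraries cannot be told apart. In that setting the dark course calls of Slc25a38, Slc25a44, Slc35b2, Slc20a1 and Slc30a9 were lost. So were the light course calls of Slc15a4, Slc30a3, Slc6a11 and Slc6a13. No value changed sign.

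Same-numbered libraries deviated together little on average (mean correlation 0.021, with 26.2% of the pairs over 0.1). Such a mean cannot settle whether the numbers pair any of them. Within an arm, libraries numbered 1 and 2 or 3 and 4 did share a little (mean correlation 0.069, against -0.069 across these sets), which the term for replicates 3 and 4 takes up. With the replicate number as a block there were 42 rhythmic members, 17 over the dark hours, and 1 at ZT1, and the light course of Slc30a3 was lost (adjusted p 0.053). Depth limits members near the filter most.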
